A study of Homo sapiens with 4 samples.

Results

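The SMAD family comprises the proteins that carry signals of the TGF-β superfamily from receptors at the cell surface to the nucleus. Its 8 human genes, SMAD1, SMAD2, SMAD3, SMAD4, SMAD5, SMAD6, SMAD7 and SMAD9, were taken by gene symbol from the deposited expression tables, which list 17894 genes for each of 4 RNA-SEQ libraries. All 8 were listed in every library, and all 8 passed the filter used for the comparisons, a mean of at least 1 FPKM over the 4 libraries, which 12697 genes passed. FPKM (fragments per kilobase of transcript and per unit of sequencing depth) is a level scaled for transcript length, so that levels of different genes can be set side by side.

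The cells were H1 human embryonic stem cells that had been differentiated towards blood for 2 days on mAGM-S3, a mouse stromal line that supports hematopoiesis, in serum-containing medium. Human cells were then sorted by FACS on a surface antigen that mouse stroma lacks and were sequenced in bulk. In all 4 libraries the line, the stroma, the day and the sort were the same. The control was 1 library of wild-type cells, and R-spondin2 was 1 library of wild-type cells given R-spondin2, a secreted enhancer of WNT signaling, at 20 ng/mL during the first 1 day. LGR4-/- comprised 2 libraries of H1 cells with this genotype, LGR4 being a receptor for R-spondins, named LGR4-/- 1 and LGR4-/- 2. Their labels name no added R-spondin2, and whether they are separate clones is not stated there. The comparisons ask how the SMAD genes respond to an added R-spondin and to the loss of one of its receptors while mesoderm forms.

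Receptors for BMPs phosphorylate SMAD1, SMAD5 and SMAD9, and receptors for activin, nodal and TGF-β phosphorylate SMAD2 and SMAD3. The phosphorylated proteins join the common partner SMAD4, enter the nucleus and regulate genes there. SMAD6 and SMAD7 lack the phosphorylated tail and inhibit the pathway: SMAD6 mainly restrains BMP signals, SMAD7 restrains all branches, and both are themselves known targets of the signal. In the early embryo, nodal and BMP signals together induce the primitive streak and mesoderm. RNA levels, which are all that was measured here, say nothing of the phosphorylation through which these proteins act.

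The sequence before the start site is shown for SMAD6 and SMAD3, the members with the largest log2(FPKM+1) differences between LGR4-/- and control, to set their letters beside their levels. On that scale SMAD9, a low gene, came after SMAD3, and without a pseudocount SMAD9 and SMAD3 were close, as the ratios given with each gene show. Each run is the 250 bases before the outermost RefSeq start (build GRCh38.p14, plus strand, 5′ to 3′), SMAD6 at chr15:66701986-66702235 and SMAD3 at chr15:67065352-67065601. Capitals mark matches to GTCT or AGAC, the core letters that SMAD3 and SMAD4 bind, to their palindrome GTCTAGAC, and to GGCGCC, a GC-rich element bound by BMP-regulated SMADs.
SMAD6: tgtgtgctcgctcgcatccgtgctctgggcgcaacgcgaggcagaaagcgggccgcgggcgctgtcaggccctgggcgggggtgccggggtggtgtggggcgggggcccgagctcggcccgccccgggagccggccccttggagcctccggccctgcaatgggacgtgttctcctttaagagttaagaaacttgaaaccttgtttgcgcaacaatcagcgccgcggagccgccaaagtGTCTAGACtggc
SMAD3: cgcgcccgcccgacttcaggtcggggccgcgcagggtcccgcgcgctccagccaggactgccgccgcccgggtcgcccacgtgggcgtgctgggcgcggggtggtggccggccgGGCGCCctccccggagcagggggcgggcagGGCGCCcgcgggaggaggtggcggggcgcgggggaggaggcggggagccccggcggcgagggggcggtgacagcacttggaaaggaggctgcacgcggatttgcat
The SMAD6 window held the full palindrome at positions -12 to -5 from the start site, and the GTCT and AGAC found in it are the parts of that palindrome. None of the other 7 members held GTCTAGAC in their outermost window. Over all 35116 windows of this length in the RefSeq table, 0.182% held it, as did 0.138% of the 14452 windows of genes that passed the filter. The SMAD3 window held GGCGCC at -136 to -131 and at -106 to -101 and no GTCT or AGAC. The outermost windows of SMAD2 and SMAD4 held GGCGCC as well, and that of SMAD4 likewise held no GTCT or AGAC. Some windows before inner starts of SMAD3 did hold GTCT or AGAC. Matches to the short cores are common, since 77.5% of all windows held GTCT or AGAC and 16.4% held GGCGCC. No window of any member held CTTTGAT or ATCAAAG, the letters bound by the TCF/LEF factors of the WNT pathway. They occurred in 2.26% of all windows and in 1.36% of those of genes that passed the filter. These matches describe the letters in the windows and not binding in these cells.

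LGR4, the targeted gene, was listed at 21.8 FPKM in control, 24.3 in R-spondin2, 7.40 in LGR4-/- 1 and 13.95 in LGR4-/- 2, that is 34.0% and 64.1% of control in the LGR4-/- libraries. Its log2(FPKM+1) difference was -1.02 (SE 0.34, limma adjusted p = 0.209). LGR4 RNA was therefore still present in both, and since where the gene was altered is not given in the sources used here, its RNA level is a limited check of the genotype. The summed FPKM of the libraries lay between 433574 and 437112, and between 1491 and 1642 genes were at 0. The authors deposited no read counts. The depth, estimated from the steps between low FPKM values, was between 8700000 and 8920000 fragments in the 4 libraries. Intervals given below are 95% Clopper-Pearson intervals from the fragments that a level implies at this depth, using the shortest listed transcript of the gene. They cover counting error only, not the spread between cultures.

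All 8 SMAD genes were expressed in every library. In control, SMAD6 had the highest level, followed by SMAD5, SMAD7, SMAD1, SMAD4, SMAD2, SMAD3 and SMAD9. In the 2 LGR4-/- libraries the mean levels were 11.9 FPKM ± 0.580 for SMAD5, 10.8 ± 2.72 for SMAD7, 10.5 ± 0.672 for SMAD4, 10.3 ± 0.0212 for SMAD1, 6.49 ± 0.0283 for SMAD2, 6.41 ± 2.15 for SMAD6, 4.61 ± 0.552 for SMAD3 and 1.00 ± 0.0354 for SMAD9 (SD, n = 2). In that order, SMAD1 and SMAD2 differed by more than their SDs, as did SMAD3 and SMAD9, whereas the other neighbours lay within the larger SD of the pair. SMAD6, first in control and in R-spondin2, had rank 6 in LGR4-/- 1 and rank 5 in LGR4-/- 2. SMAD6 also varied most over the 4 libraries, with a highest level 5.72 times its lowest. The same ratio was 2.02 for SMAD9, 1.89 for SMAD3, 1.84 for SMAD7, 1.38 for SMAD5, 1.2 for SMAD2, 1.16 for SMAD1 and 1.11 for SMAD4. The common SMAD4 was the steadiest member.

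**Figure D1:**
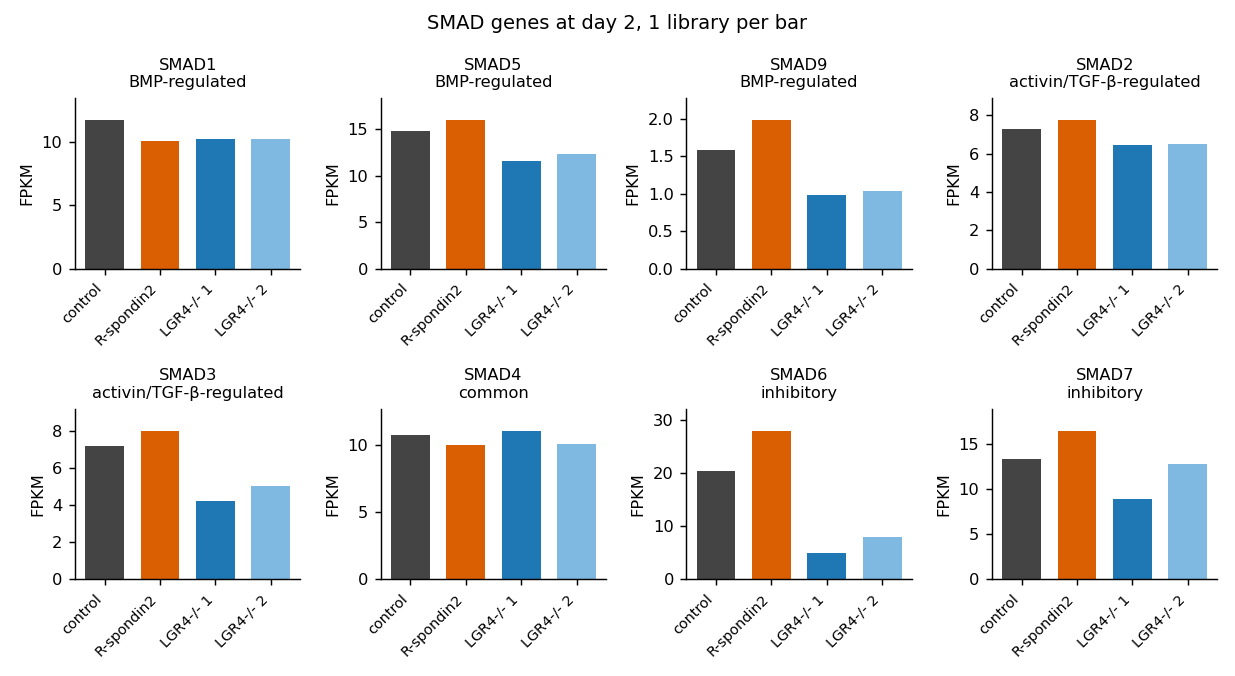
Level of each SMAD gene in FPKM (vertical axes, each from 0 with its own scale) in the control, R-spondin2, LGR4-/- 1 and LGR4-/- 2 libraries, 1 bar per library and no error bars. SMAD6 stands at 20.4 and 28.0 FPKM in the wild-type libraries and at 4.89 and 7.93 in the LGR4-/- libraries, whereas SMAD4 stays between 9.95 and 11.02.

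With R-spondin2, SMAD6 showed the largest difference of the family, while SMAD1 and SMAD4 were lower than in control. SMAD7 came next on the log2(FPKM+1) scale (0.29, beside 0.21 for SMAD9), but not without a pseudocount, where SMAD9 was at 0.33 and SMAD7 at 0.31. Differences were computed as log2(FPKM+1) in R-spondin2 minus control and ranged from -0.20 for SMAD1 to 0.44 for SMAD6. The median of the 8 genes was 0.12, beside -0.01 over all 12697 genes, whose differences had an SD of 0.213. Higher values were found for 6 of the 8 members, and 47.8% of all genes were higher, while 2 were lower, as 51.9% of all genes were. No member differed by at least 2-fold, as 0.221% of all genes did. With 1 library in each group these differences have no replicate check and no p-value. The counting interval of the log2 ratio, computed from the FPKM without a pseudocount, was above 0 for SMAD6 alone and included 0 for the other 7 members. With the longest listed transcript in place of the shortest, a choice made after seeing the data, SMAD7 (lower bound 0.14) and SMAD2 (0.006) were above 0 as well.

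In the LGR4-/- libraries the family was lower than in control, SMAD6 most and, on the log2(FPKM+1) scale, SMAD3 next. The mean log2(FPKM+1) difference of the 2 libraries from control ranged from -1.56 for SMAD6 to -0.02 for SMAD4. Its median over the 8 members was -0.29, beside 0.02 over all genes with an SD of 0.349. The mean was negative for all 8 members and for 46.4% of all genes. Both LGR4-/- libraries were below control for 7 of the 8 members, all but SMAD4, and for 35.5% of all genes. Only SMAD6 among the members was at least 2-fold lower in both LGR4-/- libraries, as 1.08% of all genes were, and in their mean, as 1.69% of all genes were. In limma's test over all 12697 genes, in which the single control is assumed to vary like the LGR4-/- libraries, no gene reached an adjusted p under 0.05 (percentage called 0.0), and 2342 genes had an unadjusted p under 0.05. Among the 1029 of these that were lower, 8.1% of all genes, were SMAD6 and SMAD3. The adjusted p was 0.0886 for SMAD6 and 0.169 for SMAD3, and from 0.291 to 0.949 for the other 6 members. SMAD6 passed the threshold with genes under a mean of 5 FPKM left out (adjusted p = 0.0181) and with both wild-type libraries as the reference (0.00952), and the adjusted p of SMAD6 under the other settings ran up to 0.378. SMAD3 passed with both wild-type libraries as the reference (limma adjusted p = 0.0227). The R-spondin2 and LGR4-/- comparisons share the control library, so that a high or low value in it moves both.

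The spread between the 2 LGR4-/- libraries gives a scale for these differences. The log2(FPKM+1) difference of LGR4-/- 2 from LGR4-/- 1 had an SD of 0.222 over all genes. No member differed between them by at least 2-fold, as 0.252% of all genes did, and 6 members were higher in LGR4-/- 2, as 49.2% of all genes were. The inhibitory genes lay furthest apart, SMAD6 by 0.60 and SMAD7 by 0.47, while SMAD1 and SMAD2 differed by -0.004 and 0.008. The counting interval of the log2 ratio excluded 0 for SMAD6 (0.41 to 0.99) and SMAD7 (0.12 to 0.92) and included it for the other 6. LGR4 RNA was also higher in LGR4-/- 2 than in LGR4-/- 1, as given above, and its part in this difference was not tested.

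**Figure D2:**
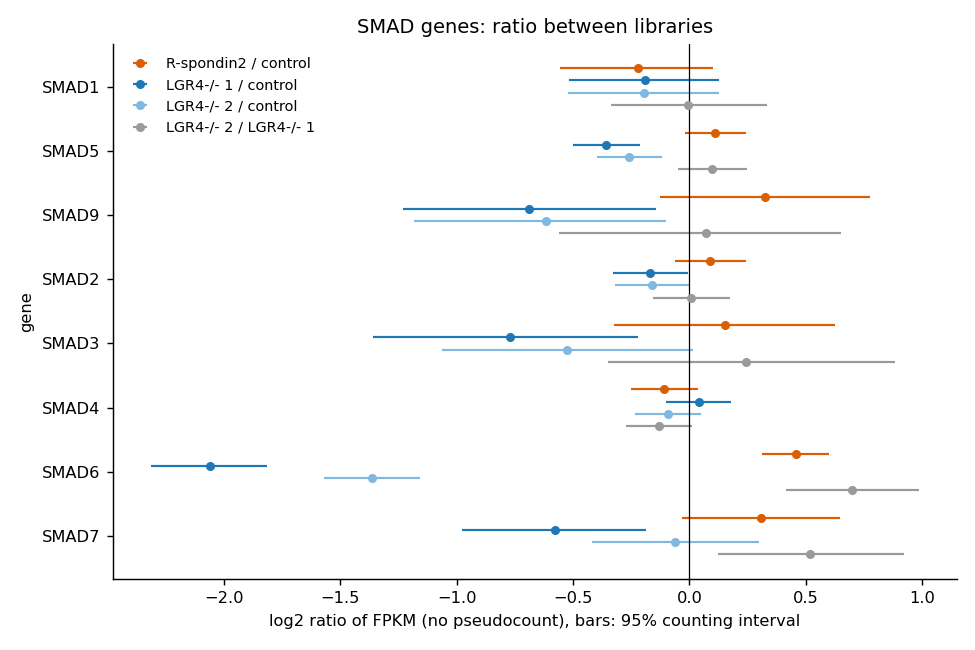
Log2 ratio of FPKM without a pseudocount (horizontal axis) for each SMAD gene between R-spondin2 and control, between each LGR4-/- library and control, and between the LGR4-/- libraries, points with 95% counting intervals as bars. SMAD6 lies at 0.46 with R-spondin2 and at -2.06 and -1.36 in the LGR4-/- libraries. In LGR4-/- 1 against control its interval lies below those of every other member. In LGR4-/- 2 against control its interval (-1.57 to -1.16) overlaps that of SMAD9 (-1.18 to -0.10).

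Of the inhibitory SMADs, SMAD6 (NCBI gene 4091, chromosome 15) competes with SMAD4 for receptor-activated SMAD1 and blocks BMP receptors. SMAD6 was at 20.4 FPKM in control, 28.0 in R-spondin2, 4.89 in LGR4-/- 1 and 7.93 in LGR4-/- 2. Both LGR4-/- libraries were thus well below control, at 24.0% and 38.9% of it. On the log2(FPKM+1) scale both were at least 2-fold lower, as for 1.08% of all genes. The R-spondin2 library was highest, at 137.2% of control. The log2 ratio of R-spondin2 to control was 0.46 (counting interval 0.31 to 0.60, from 697 implied fragments in control and 933 in R-spondin2). For LGR4-/- 1 it was -2.06 (-2.31 to -1.81, 167 fragments) and for LGR4-/- 2 it was -1.36 (-1.57 to -1.16, 268 fragments). The mean log2(FPKM+1) difference in LGR4-/- was -1.56 (SE 0.26, limma adjusted p = 0.0886), so that the largest difference of the family missed the threshold. The gap between the 2 LGR4-/- libraries, 0.60, was smaller than the gap of either to control, which was -1.86 for LGR4-/- 1 and -1.26 for LGR4-/- 2.

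SMAD7 (gene 4092, chromosome 18), which recruits ubiquitin ligases to activated receptors, was at 13.3 FPKM in control, 16.4 in R-spondin2, 8.89 in LGR4-/- 1 and 12.7 in LGR4-/- 2. The 2 LGR4-/- libraries lay apart for this gene, since LGR4-/- 1 was at 67.0% of control and LGR4-/- 2 at 95.9%. The log2 ratio to control was -0.58 (counting interval -0.98 to -0.18, from 91 implied fragments) in LGR4-/- 1 and -0.06 (-0.42 to 0.30, 129 fragments) in LGR4-/- 2. With R-spondin2 it was 0.31 (-0.03 to 0.64, 164 fragments against 136 in control). The mean log2(FPKM+1) difference in LGR4-/- was -0.29 (SE 0.22, limma adjusted p = 0.545), which rests on LGR4-/- 1: it was -0.53 there and -0.06 in LGR4-/- 2. SMAD6 was above SMAD7 in both wild-type libraries, 1.54 times in control and 1.71 times in R-spondin2, and below it in both LGR4-/- libraries, at 0.550 and 0.623 times.

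Among the BMP-regulated SMADs, SMAD5 and SMAD1 were well expressed and SMAD9 was near the filter. SMAD5 (gene 4090, chromosome 5) was at 14.8 FPKM in control, 15.95 in R-spondin2, 11.5 in LGR4-/- 1 and 12.35 in LGR4-/- 2. Its LGR4-/- values were close together and below control, with log2 ratios to control of -0.36 (counting interval -0.50 to -0.21) and -0.26 (-0.40 to -0.12). The mean log2(FPKM+1) difference was -0.29 (SE 0.12, limma adjusted p = 0.291), and with R-spondin2 the log2 ratio was 0.11 (-0.02 to 0.24). SMAD1 (gene 4086, chromosome 4) was at 11.7 FPKM in control, 10.1 in R-spondin2, 10.3 in LGR4-/- 1 and 10.25 in LGR4-/- 2. All other libraries were thus below control for SMAD1 and lay close to each other. Its log2 ratio to control was -0.22 (-0.56 to 0.10) with R-spondin2 and -0.19 (-0.52 to 0.13) and -0.20 (-0.52 to 0.13) in the LGR4-/- libraries, all with intervals that include 0. SMAD9 (gene 4093, chromosome 13), which shares its receptors with SMAD1 and SMAD5, was at 1.58 FPKM in control, 1.98 in R-spondin2, 0.98 in LGR4-/- 1 and 1.03 in LGR4-/- 2. For SMAD9 both LGR4-/- values were below control, at 62.0% and 65.2% of it, as both were for 35.5% of all genes. Its log2 ratio was -0.69 (-1.23 to -0.14, from 48 implied fragments) and -0.62 (-1.18 to -0.10, from 49), and 0.33 (-0.13 to 0.78) with R-spondin2, while limma gave a mean log2(FPKM+1) difference of -0.36 (SE 0.19, adjusted p = 0.384).

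Of the activin- and TGF-β-regulated SMADs, SMAD3 varied more than SMAD2. SMAD3 (gene 4088, chromosome 15), which binds DNA directly, was at 7.19 FPKM in control, 7.99 in R-spondin2, 4.22 in LGR4-/- 1 and 5.0 in LGR4-/- 2. Both LGR4-/- values were below control, at 58.7% and 69.5% of it, as both were for 35.5% of all genes. The log2 ratio to control was -0.77 (counting interval -1.36 to -0.22, from 43 implied fragments) in LGR4-/- 1, -0.52 (-1.06 to 0.01, from 51) in LGR4-/- 2 and 0.15 (-0.33 to 0.62) with R-spondin2. These wide intervals come from the shortest of its 4 listed transcripts, 1147 bases; with the longest, 6247 bases, the upper bound in LGR4-/- 2 was -0.30. The mean log2(FPKM+1) difference was -0.55 (SE 0.16, limma adjusted p = 0.169). SMAD2 (gene 4087, chromosome 18), whose main protein form does not bind DNA directly, was at 7.27 FPKM in control, 7.74 in R-spondin2, 6.47 in LGR4-/- 1 and 6.51 in LGR4-/- 2. The order of its libraries was that of SMAD3, over a narrower range. Its log2 ratio was 0.09 (-0.06 to 0.24) with R-spondin2, -0.17 (-0.33 to -0.007) in LGR4-/- 1 and -0.16 (-0.32 to 0.002, with an upper bound of -0.07 for the longest transcript) in LGR4-/- 2, and limma gave a log2(FPKM+1) difference of -0.14 (SE 0.13, adjusted p = 0.632). SMAD2 and SMAD3 were at nearly equal levels in wild-type cells, with ratios of 1.01 in control and 0.969 in R-spondin2, and at 1.53 and 1.30 in the LGR4-/- libraries.

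The common SMAD4 (gene 4089, chromosome 18), the partner of all receptor-regulated members, was at 10.7 FPKM in control, 9.95 in R-spondin2, 11.02 in LGR4-/- 1 and 10.1 in LGR4-/- 2. The values of the groups overlapped. Its log2 ratio to control was -0.11 (counting interval -0.25 to 0.03) with R-spondin2, 0.04 (-0.10 to 0.18) in LGR4-/- 1 and -0.09 (-0.23 to 0.05) in LGR4-/- 2. In limma the log2(FPKM+1) difference was -0.02 (SE 0.13, adjusted p = 0.949), and its sign turned with both wild-type libraries as the reference (0.03) and without LGR4-/- 2 (0.04).

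Summed over the family, SMAD FPKM came to 86.9 in control, 98.1 in R-spondin2, 58.3 in LGR4-/- 1 and 65.9 in LGR4-/- 2. The inhibitory SMADs accounted for most of this spread, at 33.65, 44.4, 13.8 and 20.7 FPKM in the same order. The receptor-regulated SMADs summed to 42.55, 43.7, 33.5 and 35.1 FPKM. Within them, the BMP-regulated genes summed to 28.1 and 28.0 in the wild-type libraries and to 22.8 and 23.6 in LGR4-/-, and the activin- and TGF-β-regulated genes to 14.5 and 15.7 and to 10.7 and 11.5. The inhibitory SMADs thus made up 38.7% of all SMAD FPKM in control, 45.2% in R-spondin2, 23.6% in LGR4-/- 1 and 31.4% in LGR4-/- 2. The ratio of inhibitory to receptor-regulated SMAD RNA was 0.791 in control and 1.01 in R-spondin2, and 0.412 and 0.588 in the LGR4-/- libraries. Both LGR4-/- ratios were below both wild-type ratios, by more than the gap between them. SMAD6 weighed heavily in these sums: without it the family summed to 66.5, 70.1, 53.4 and 57.9 FPKM. The ratio of SMAD7 alone to the receptor-regulated SMADs was 0.312 in control, 0.375 in R-spondin2, 0.266 in LGR4-/- 1 and 0.362 in LGR4-/- 2, so that without SMAD6 the ratio in LGR4-/- 2 was above control. In bulk RNA, fewer cells that express a gene and less of its RNA per cell cannot be told apart, which holds for every level given here.

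**Figure D3:**
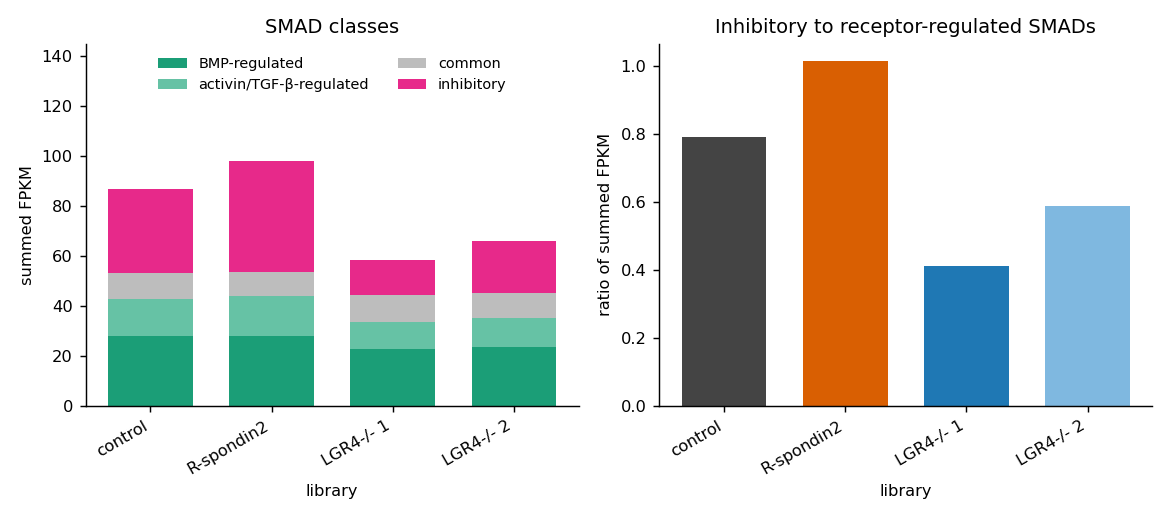
Left, summed FPKM of the BMP-regulated, activin/TGF-β-regulated, common and inhibitory SMADs in each library (stacked bars). Right, ratio of the summed FPKM of inhibitory to receptor-regulated SMADs, which is 0.791 in control, 1.01 in R-spondin2 and 0.412 and 0.588 in the LGR4-/- libraries; there are no error bars, since each bar is 1 library.

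The rest of the pathway was described by 5 lists of genes, with the same filter and log2(FPKM+1) differences. The lists of target genes also hold SMAD members, so that they partly restate the values given above. None of the genes of any list reached a limma adjusted p under 0.05 in LGR4-/- against control in either direction, and none differed by at least 2-fold with R-spondin2. The targets of the BMP branch had the largest list medians. Of 17 listed BMP targets, which include SMAD6, SMAD7 and SMAD9, 13 passed the filter. With R-spondin2, 10 of them were higher and 3 lower (median 0.21), and in LGR4-/- 11 were lower and 2 higher (median -0.83), 6 of them at least 2-fold lower. SMAD6, SMAD7 and SMAD9 are among the 10 and among the 11, and SMAD6 is among the 6. The R-spondin2 median is the value of SMAD9 itself, and with a pseudocount of 0.1 it was that of SMAD7 (0.30). Over all genes, 47.8% were higher with R-spondin2, and 46.4% were lower and 1.69% at least 2-fold lower in LGR4-/-. The size of the LGR4-/- median depended on the library, at -1.25 in LGR4-/- 1 and -0.38 in LGR4-/- 2, and it was -0.40 without a filter on low values and -1.31 with a pseudocount of 0.1. NOG, a secreted BMP antagonist, was at 9.52 FPKM in control, 13.4 in R-spondin2, 0.71 in LGR4-/- 1 and 2.40 in LGR4-/- 2 (difference in LGR4-/- -2.13, limma adjusted p = 0.0961). MSX1, a homeobox factor, was at 40.4, 51.8, 5.65 and 13.5 FPKM in the same libraries (-2.08, limma adjusted p = 0.107). Both were low where SMAD6 was low. ID1, an inhibitor of differentiation factors that is a standard BMP target, did not share this order, at 170.1 FPKM in control, 108.2 in R-spondin2, 193.3 in LGR4-/- 1 and 176.2 in LGR4-/- 2. Its relative ID4 was likewise lowest in R-spondin2, with differences of -0.30 with R-spondin2 and 0.17 in LGR4-/-.

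Targets of activin, nodal and TGF-β lay on both sides of control, and in LGR4-/- the split into higher and lower was near that of all genes. All 20 listed genes, SMAD7 among them, passed the filter. With R-spondin2, 14 were higher and 6 lower (median 0.13), and 47.8% of all genes were higher. In LGR4-/- 10 were higher and 10 lower (median -0.01), and 46.4% of all genes were lower. Of the 10 lower, 2 were at least 2-fold lower, beside the 1.69% of all genes. At 1.5-fold, either way, 6 of the 20 differed in LGR4-/-, beside 1079 of all 12697 genes. CER1, a secreted nodal and BMP antagonist of the endoderm, was the most abundant, at 2395 FPKM in control, 3467 in R-spondin2, 598.8 in LGR4-/- 1 and 1034 in LGR4-/- 2 (difference in LGR4-/- -1.61, limma adjusted p = 0.0944). GSC, a homeobox factor of the primitive streak, was at 46.2 FPKM in control and 66.1 in R-spondin2, a difference of 0.51, and at 23.6 and 29.8 in LGR4-/-. Against these, LEFTY1, a nodal inhibitor, was higher in LGR4-/- at 70.4 and 59.3 FPKM, beside 36.9 in control and 43.9 in R-spondin2 (0.79, limma adjusted p = 0.0867). CYR61, a matrix protein, was also higher in LGR4-/- (0.57, adjusted p = 0.0785 in limma). The most negative differences with R-spondin2 were those of TGFBI and SKIL, at -0.24 each.

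Of 15 receptors and co-receptors, 13 passed the filter. With R-spondin2, 7 were higher and 6 lower (median 0.04), beside 47.8% and 51.9% of all genes. In LGR4-/- 4 were higher and 9 lower (median -0.15, and -0.12 in LGR4-/- 1 and -0.30 in LGR4-/- 2 alone), and 46.4% of all genes were lower. None was at least 2-fold different in the mean of log2(FPKM+1). In LGR4-/- 1 alone 2 were at least 2-fold lower, beside 447 of all 12697 genes that were at least 2-fold different either way in that library. ACVR1, a BMP type I receptor, had the largest positive log2(FPKM+1) difference with R-spondin2, 0.41, at 6.64 FPKM in control and 9.15 with R-spondin2, followed by ACVRL1 at 0.29. TGFBR3 (-0.19) and BMPR1A (-0.14) were lower with R-spondin2. ACVRL1, a receptor known from endothelium, and AMHR2, the receptor of anti-Müllerian hormone, had the lowest values in LGR4-/- against control, at -0.90 and -0.97. Both were under 3 FPKM in all libraries, where this scale understates a change: AMHR2 was at 1.85 FPKM in control and at 0.40 and 0.51 in LGR4-/-. ENG (0.31) and TDGF1 (0.29), co-receptors, were highest. The list of 19 enzymes that add or remove ubiquitin or phosphate on SMADs all passed the filter, with medians of 0.01 with R-spondin2 (10 higher, 9 lower) and 0.03 in LGR4-/- (11 higher, 8 lower). USP9X, which removes ubiquitin from SMAD4, was at 21.2 FPKM in control, 16.8 in R-spondin2, 37.9 in LGR4-/- 1 and 28.4 in LGR4-/- 2 (0.61 in LGR4-/-, -0.32 with R-spondin2). The ubiquitin ligase WWP1 had the opposite order, at 0.24 with R-spondin2 and -0.34 in LGR4-/-. The phosphatases CTDSP1 (-0.49 in LGR4-/-) and CTDSPL (-0.24 with R-spondin2), the ligase NEDD4L (0.30 in LGR4-/-) and USP15 (0.18 with R-spondin2) were the other genes at the ends of this list.

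Of 27 SMAD-binding regulators and cofactors, 25 passed the filter, with a median of -0.04 with R-spondin2 (11 higher, 14 lower) and of 0.02 in LGR4-/- (14 higher, 11 lower). These medians were close to those of all genes, of which 47.8% were higher with R-spondin2 and 46.4% lower in LGR4-/-. RUNX1, a blood transcription factor that binds SMADs, was at 3.96 FPKM in control, 3.71 in R-spondin2, 0.61 in LGR4-/- 1 and 1.29 in LGR4-/- 2 (-1.37 in LGR4-/-, limma adjusted p = 0.0959). ANKRD1, a nuclear ankyrin-repeat protein, was at 6.67, 11.2, 1.79 and 3.87 FPKM in the same libraries (0.67 with R-spondin2, -1.06 in LGR4-/-). These were the 2 genes of the list at least 2-fold lower in LGR4-/-, as 1.69% of all genes were. ZEB2 was higher with R-spondin2 (0.33), ZNF423 (-0.37) and TOB1 (-0.32) were lower, and SKIL (0.40) and TOB2 (0.27), repressors of SMAD signals, were highest in LGR4-/-.

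**Figure D4:**
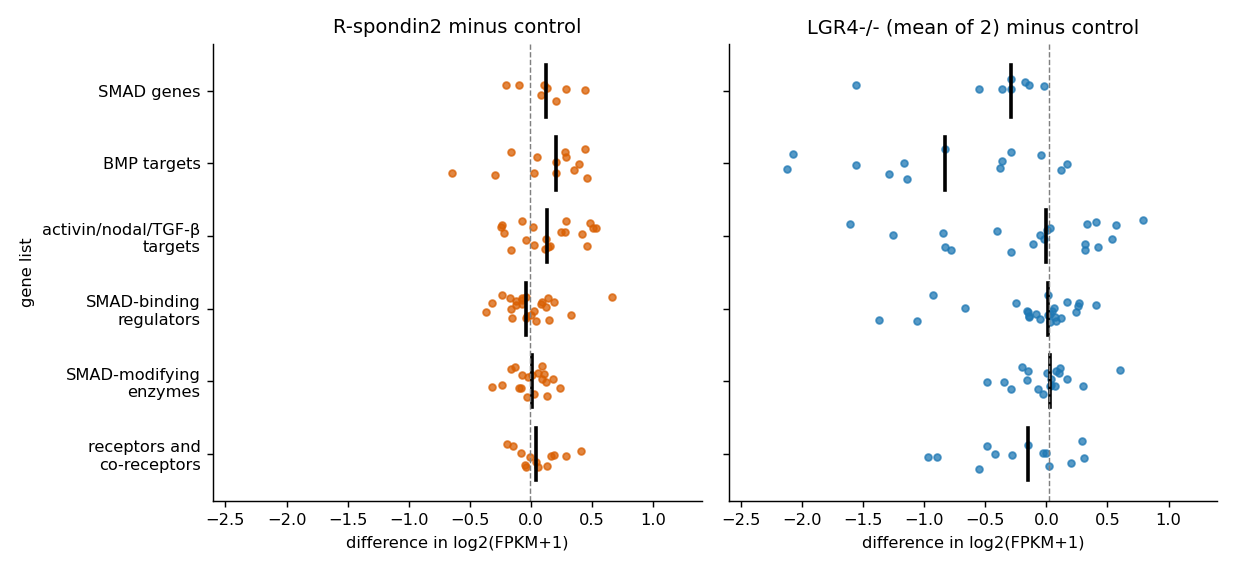
Difference in log2(FPKM+1) for the SMAD genes and the 5 pathway lists, R-spondin2 minus control on the left and the mean of the LGR4-/- libraries minus control on the right, 1 point per gene above the filter, black bars for the list medians and a dashed line for the median of all genes. The BMP targets, which include SMAD6, SMAD7 and SMAD9, have medians of 0.21 and -0.83 (-1.25 in LGR4-/- 1 and -0.38 in LGR4-/- 2), and the SMAD genes of 0.12 and -0.29.

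The libraries also differed in markers of cell state, most of all in those of pluripotency, mesoderm and endoderm. The 9 pluripotency markers, among them POU5F1, NANOG and SOX2, summed to 1610 FPKM in control, 1306 in R-spondin2, 2635 in LGR4-/- 1 and 2426 in LGR4-/- 2. The 12 primitive streak and mesoderm markers, such as T, MIXL1 and MESP1, summed to 1176, 1537, 420.1 and 646.5 FPKM. All 9 pluripotency markers were above control and all 12 mesoderm markers below it in both LGR4-/- libraries, while 8 of the 9 were lower and 11 of the 12 higher with R-spondin2. Of all genes, 42.5% were above and 35.5% below control in both LGR4-/- libraries, and 51.9% were lower and 47.8% higher with R-spondin2. None of these 21 genes was at 0 in any library. The 6 definitive endoderm markers, which include CER1, summed to 2501, 3588, 647.0 and 1093 FPKM. The mesoderm and endoderm sums had the library order of SMAD6 and the pluripotency sum its reverse. The part of these 3 marker groups in the SMAD differences was not tested. The 10 endothelial and blood markers summed to 16.0 to 19.1 FPKM, with CDH5 at 0.05 or less, and the 6 neuroectoderm markers to 38.8 to 56.7 FPKM, most of it OTX2, with SOX1 at 0 in both wild-type libraries. The 10 fibroblast markers, listed to look for RNA of stroma, summed to 264.7 FPKM in control, 326.45 in R-spondin2, 266.4 in LGR4-/- 1 and 290.6 in LGR4-/- 2. Since the stroma was mouse and the files were mapped to hg19, this sum is a limited measure of it. DCN and POSTN were under 0.4 FPKM throughout, whereas COL1A1 and COL1A2 were at 64.0 to 153.0 FPKM. The fibroblast sum was highest in R-spondin2, as SMAD2, SMAD3, SMAD5, SMAD6, SMAD7 and SMAD9 were, and its part in their levels was not tested. Of the 8 fibroblast markers past the filter, 6 were higher and 2 lower with R-spondin2. The 2 were THY1 (44.0 FPKM in control, 36.1 in R-spondin2) and CXCL12 (19.35 and 17.7), and both were highest in the LGR4-/- libraries.

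The genes with the library profile most like SMAD6 and SMAD7, the members with the widest ranges of log2(FPKM+1) (2.30 and 0.82, beside 0.78 for SMAD3, the next), were found by the Euclidean distance between log2(FPKM+1) values after each gene's mean over the 4 libraries was subtracted. For SMAD6 the nearest were PLPP4, a lipid phosphatase (distance 0.0475), VIM, the intermediate filament of mesenchymal cells (0.0685), and NRP2, a co-receptor for semaphorins and VEGF (0.0756). VIM was at 523.9 FPKM in control, 670.5 in R-spondin2, 143.7 in LGR4-/- 1 and 215.5 in LGR4-/- 2, and NRP2 at 28.7, 38.2, 7.57 and 11.5. PLPP4 was at 4.70, 6.50, 0.50 and 1.33 FPKM. Their order over the libraries was that of SMAD6 at levels from far below to far above it. Within a distance of 0.25 of SMAD6 lay 35 of the 12689 genes that are no member. For SMAD7 the nearest were GPC6, a cell surface glypican (0.0388), ADA, adenosine deaminase (0.0586), and PABPC4L, a gene related to the poly(A)-binding proteins (0.0604), and 274 genes lay within 0.25. GPC6 was at 10.1, 12.6, 6.98 and 9.82 FPKM, ADA at 11.01, 13.3, 7.59 and 10.6, and PABPC4L at 2.06, 2.85, 1.25 and 2.04. Each of these, like SMAD7, was close to control in LGR4-/- 2 and lowest in LGR4-/- 1. The likeness is over 4 libraries, and with a pseudocount of 0.1 none of the 3 genes nearest to SMAD6 was kept.

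**Figure D5:**
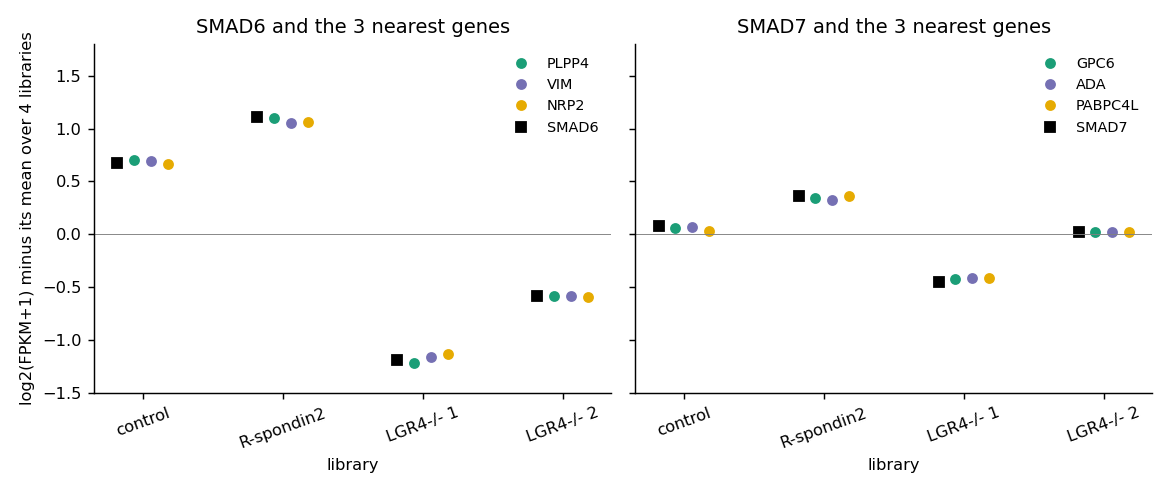
Log2(FPKM+1) minus the gene's mean over the 4 libraries (vertical axis) in each library for SMAD6 with PLPP4, VIM and NRP2 (left) and SMAD7 with GPC6, ADA and PABPC4L (right), 1 point per gene and library. The points of each panel lie together in every library, within a distance of 0.0756 for SMAD6 and 0.0604 for SMAD7.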

How the data were processed

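RNA-SEQ libraries were prepared from RNA of sorted cells with a TruSeq kit. The authors deposited 1 table per library with FPKM to 2 decimals, already scaled by them for transcript length and mapped fragments. The submitters' processing notes name BWA, Bowtie, RSEM and hg19, without versions or roles. Groups were taken from the labels. A count model was not used, since no counts are given. Values were compared as log2(FPKM+1), which understates changes of low genes, and genes averaging under 1 FPKM over the libraries were left out. LGR4-/- (2 libraries) was compared with control (1) by limma 3.58.1 with a trend (R 4.3.3), with 1 residual degree of freedom per gene and Benjamini-Hochberg adjustment over 12697 genes. limma drew each gene's variance largely from that of all genes at like levels (4.09 prior degrees of freedom). The SEs and p-values thus do not rest on a gene's own spread alone. The spread behind them, over all genes, is that between 2 libraries, which may be technical. R-spondin2 was compared without a test. Other steps used Python 3.11.15, numpy 2.4.6, pandas 2.3.3, scipy 1.17.1 and matplotlib 3.10.9.

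Depth was estimated from FPKM under 0.6 of transcripts under 1500 bases, with GENCODE 29 lengths of 8068 genes with a single transcript length. At the best depth 76.0% to 78.2% of these values lay within 0.2 of a whole fragment, beside 39.4% to 42.6% with lengths shuffled. On data simulated for LGR4-/- against control over 12697 genes, limma called 75% of genes changed 2-fold and 99% of those changed 4-fold at the threshold. In the deposited data 286 genes differed at least 2-fold and 0 were called, so these simulated shares do not give the power reached here.

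The members, the gene lists and the tests were chosen with earlier results of these data known. Named genes were all 8 members, LGR4, the 3 nearest genes to the 2 members with the widest range of log2(FPKM+1), and the 2 largest rises and falls of each pathway list in each comparison; 1 gene that this rule names is not reported here. Promoter windows came from the RefSeq table of build GRCh38.p14, and all 8 members matched it by symbol. Gene chromosomes are from GENCODE 29 on GRCh38, not from the hg19 mapping of the files.

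Alternatives were a pseudocount of 0.1, no filter, a filter at 5 FPKM, rescaling by median ratios, a threshold of 1.5-fold, limma without a trend, both wild-type libraries as the reference, leaving out each LGR4-/- library and, as a choice made once the data had been seen, the longest transcript for counting intervals.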

Additional observations from a re-analysis of the deposited data

How the results depend on the processing

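With 1 control library, no SMAD difference can be separated from differences between cultures, and FPKM without counts limit intervals to counting error. The direction of the members with R-spondin2 was kept in 31 of 31 values over the alternatives, that in LGR4-/- against control in 61 of 63 and that between the LGR4-/- libraries in 30 of 31. Many of these values could not turn. A filter or limma without a trend leaves a member's difference unchanged, and a pseudocount cannot change its sign between single libraries. With R-spondin2 and between the LGR4-/- libraries, only median ratio rescaling could turn a sign. SMAD4 turned to 0.026 in LGR4-/- with both wild-type libraries as the reference and to 0.036 without LGR4-/- 2. The counts over all genes moved most. Genes at least 2-fold different with R-spondin2 numbered 28, and 139 with a pseudocount of 0.1, 14 above a mean of 5 FPKM and 254 at 1.5-fold. Between the LGR4-/- libraries they numbered 32, and 141, 12 and 306 under the same settings. In LGR4-/- against control they numbered 286, and 551, 179 and 1079, with 191 without LGR4-/- 1 and 447 without LGR4-/- 2. Genes at a limma adjusted p under 0.05 numbered 0, but 540 above a mean of 5 FPKM, 92 with median ratio rescaling and 1862 with both wild-type libraries as the reference. The adjusted p of SMAD6 ran from 0.00952 to 0.378 over the settings, with 0.111 at a pseudocount of 0.1, 0.0590 with median ratio rescaling, 0.161 without a trend and 0.378 without a filter. Of the 3 genes nearest to SMAD6, 0 were kept with a pseudocount of 0.1. The mean LGR4-/- ratio of inhibitory to receptor-regulated SMADs, 0.500, was 0.412 with LGR4-/- 1 alone and 0.588 with LGR4-/- 2 alone. The receptor list's median in LGR4-/- was -0.02 without a filter or above 5 FPKM and -0.30 without LGR4-/- 1, and that of the BMP-regulated SMADs with R-spondin2 was -0.05 above 5 FPKM, where SMAD9 is lost. The causes of these shifts were not tested. No paired analysis was possible because control and R-spondin2 have 1 library each and their labels carry no replicate number.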
